A study of Rattus norvegicus with 60 samples.

Results

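Liver RNA of rats given p-toluidine at 6 mg/kg per day was compared with liver RNA of rats given the vehicle of the same chemical. The comparison holds 10 of the 60 arrays of the study, 5 at 6 mg/kg and 5 vehicle, and was chosen by the sample titles. The study dosed male F344/N rats by gavage on 5 days with p-toluidine or with N,N-dimethyl-p-toluidine (DMPT), each at 1, 6, 20, 60 and 120 mg/kg or as vehicle alone, and hybridised 5 Affymetrix 3′ expression arrays per group. The rats were 5 to 6 weeks old at the start and were housed 2 per cage. All groups, vehicle included, received corn oil at 2.5 ml/kg, and pieces of the left lateral lobe were frozen for RNA. The p-toluidine doses come from the sample labels, since the treatment text lists doses for DMPT alone. No label says which animal or cage an array came from, so the p-values reflect the spread among these samples, which may be technical. Values are log2 levels per probe set, and a change is the mean at 6 mg/kg minus the mean of its vehicle.

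p-Toluidine is an aromatic amine, a benzene ring with an amino group and a methyl group opposite each other, and DMPT carries methyl groups on the nitrogen where p-toluidine has none. The liver oxidises, acetylates and conjugates such amines. Reactive products are bound to glutathione by glutathione S-transferases and pumped out by ABC transporters. Many of these genes are switched on by transcription factors that sense foreign compounds or electrophiles: NRF2 (gene Nfe2l2), which binds antioxidant response elements in promoters; AHR (gene Ahr), which binds xenobiotic response elements; and the nuclear receptors CAR (gene Nr1i3) and PXR (gene Nr1i2).

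No transcript passed the test at this dose. With limma and p-values adjusted by Benjamini-Hochberg across every probe set, 0 of 31042 (0.0%) reached an adjusted p of 0.05, and the lowest adjusted p was 0.0690, for the theta-class glutathione S-transferase Gstt3. At an unadjusted p below 0.05 there were 2557 probe sets (8.24%), of which 1296 lay higher (4.17%) and 1261 lower (4.06%). The count of calls was 0 to 4 in the other fits of the same arrays and reached 5 when 6 mg/kg replicate 1 was left out and 4 when vehicle replicate 3 was left out. A difference of at least 2-fold was found in 16 probe sets, 4 higher and 12 lower. Among 14217 genes, each read by its brightest probe set with a single symbol, 115 (0.809%) lay higher on all 5 dosed arrays than on all 5 vehicle arrays, and 160 (1.13%) lay lower on all of them, 275 (1.93%) in all. An unadjusted p below 0.05 was found for 1252 of these genes (8.81%). Of the 14217 genes, 6621 lay above vehicle on average and 7596 below, the background for counts of direction in gene lists. Over probe sets, the groups did not overlap in 502 (1.62%), with 0.805% of all probe sets higher and 0.812% lower. The genes described here are therefore given by their values and did not pass the test, except where a call is stated for another dose or for DMPT.

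**Figure D1:**
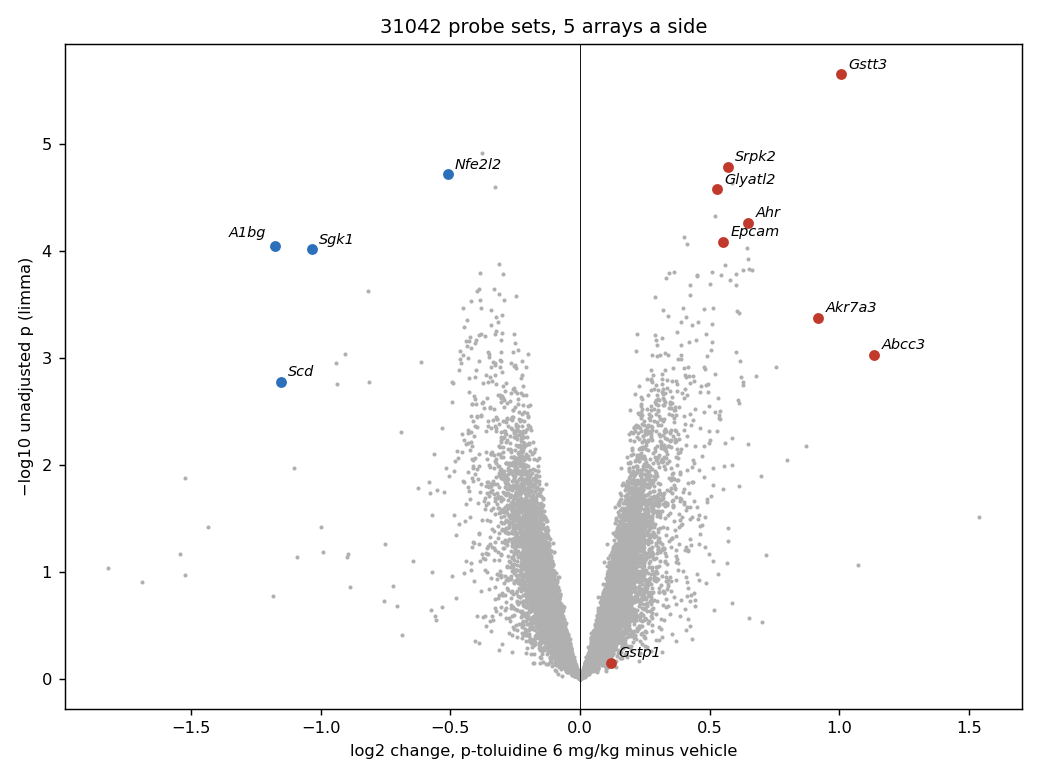
Each point is a probe set, with its log2 change at 6 mg/kg of p-toluidine minus vehicle on the horizontal axis and −log10 of its unadjusted limma p on the vertical axis, over 5 arrays a side. Gstt3 stands highest at a change of 1.01, while Gstp1 lies near the bottom at 0.12.

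The 10 arrays were closely correlated, and with all of them kept none of the 4 array checks reached an adjusted p of 0.05. Pairwise correlations over all probe sets ran from 0.991 to 0.996. The array median was 2.78 ± 0.019 (SD) at 6 mg/kg and 2.75 ± 0.014 in vehicle, with an exact permutation p of 0.0238, or 0.0952 after adjustment over the 4 array checks, where 0.00794 is the smallest p that 5 arrays against 5 allow. The 3′ minus 5′ gap of the beta-actin controls, a gauge of RNA integrity, was 1.72 ± 0.12 against 1.80 ± 0.15 (exact p = 0.373), and that of Gapdh 0.100 ± 0.052 against 0.136 ± 0.033 (exact p = 0.238). The interquartile range was 3.19 ± 0.015 against 3.22 ± 0.058 (exact p = 0.198). Vehicle replicate 5 stood apart on the second principal component of the 10 arrays (18.2% of the variance), at 27.0, where the next highest array was at 9.26. Without that array the groups did not overlap in array median (vehicle at most 2.757, dosed at least 2.759). Nor did they overlap in interquartile range (vehicle at least 3.219, dosed at most 3.212). Each of these checks kept its outcome in 9 of 10 tests that left out 1 array. The exception for both was the test without vehicle replicate 5, where each had an adjusted exact p below 0.05. Without vehicle replicate 5, 0 probe sets were called, and the genes whose change moved by over 0.15 are given with and without it.

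The smallest p belonged to Gstt3, which joins glutathione to electrophiles. Gstt3 read 7.72, 7.46, 7.40, 7.89 and 7.73 in the vehicle livers and 8.96, 8.47, 8.43, 8.76 and 8.61 in the livers of dosed rats. The groups did not overlap, and the lowest dosed array lay above the highest vehicle array. The change was 1.01 ± 0.17 (SE, 95% interval 0.65 to 1.36), a 2.01-fold difference with an unadjusted p of 2.22e-06. Gstt3 passed the test in 5 other fits, with adjusted p-values of 0.0132 when only the 10 arrays were fitted, 0.0344 with replicate numbers as a block, 0.0350 with array weights, 0.0373 with a variance trend and 0.0457 after a further quantile normalization. It did not pass in any fit that left out 1 array. Over all settings its change ran from 0.93 to 1.07.

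The other glutathione S-transferases lay mostly above vehicle by small amounts. Of 19 genes of the family on the array, Gstt3 included, 17 lay higher (background 6621 of 14217 genes) and 2 lower. At an unadjusted p below 0.05, 5 lay higher (background 3.33% of genes) and none lower. Their median change was 0.11, against −0.0095 over all genes. The microsomal enzyme Mgst2 read 8.46, 8.28, 8.17, 8.35 and 8.26 in vehicle and 8.59, 8.66, 8.67, 8.50 and 8.50 at 6 mg/kg, a change of 0.28 ± 0.08 with no overlap. The mu-class Gstm1, far brighter on the array at 10.95 ± 0.19 (SD) in vehicle, read 11.25 ± 0.16 at 6 mg/kg, a change of 0.30 ± 0.09 in which 4 of 5 dosed arrays lay above every vehicle array. The pi-class Gstp1, a marker of altered hepatocyte foci in rats, had a change near the family median, but its arrays spread widely. Gstp1 read 5.08, 5.91, 5.32, 5.90 and 5.77 in vehicle and 5.70, 4.98, 6.39, 5.80 and 5.69 at 6 mg/kg, so that the groups overlapped throughout. Its change was 0.12 ± 0.32, with a 95% interval of −0.53 to 0.77.

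Promoter sequences are shown for Gstt3, which had the smallest p, for Nfe2l2, which encodes NRF2, and for Gstp1, which differed from its level at the next higher dose. They run from 250 bases before to 50 bases after the gene's start in RefSeq, build GRCr8, 5′ to 3′ on the gene's strand, at chr20:12874368-12874667 (plus strand), chr3:81028950-81029249 (minus strand) and chr1:210769656-210769955 (minus strand). Capitals mark matches, on either strand, to the core of the antioxidant response element (TGACNNNGC) or of the xenobiotic response element (GCGTG).
Gstt3: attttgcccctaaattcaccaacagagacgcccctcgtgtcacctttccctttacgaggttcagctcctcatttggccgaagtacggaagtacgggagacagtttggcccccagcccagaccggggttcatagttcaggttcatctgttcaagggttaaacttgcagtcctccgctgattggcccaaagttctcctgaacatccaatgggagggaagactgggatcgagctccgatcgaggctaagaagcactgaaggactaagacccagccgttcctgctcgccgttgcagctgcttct
Nfe2l2: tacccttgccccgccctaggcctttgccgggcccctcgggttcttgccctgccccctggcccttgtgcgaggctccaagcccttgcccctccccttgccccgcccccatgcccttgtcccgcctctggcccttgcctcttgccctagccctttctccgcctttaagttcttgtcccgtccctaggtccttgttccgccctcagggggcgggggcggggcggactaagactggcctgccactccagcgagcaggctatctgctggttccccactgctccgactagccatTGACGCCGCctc
Gstp1: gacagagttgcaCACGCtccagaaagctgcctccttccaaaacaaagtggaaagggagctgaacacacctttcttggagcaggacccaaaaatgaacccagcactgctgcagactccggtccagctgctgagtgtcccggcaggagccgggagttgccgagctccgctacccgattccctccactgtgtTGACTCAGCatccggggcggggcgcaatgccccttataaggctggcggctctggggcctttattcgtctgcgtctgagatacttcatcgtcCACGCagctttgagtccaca
The Gstp1 window held TGACTCAGC at base 190 and 2 xenobiotic response element cores, the Nfe2l2 window held TGACGCCGC at base 289, and the Gstt3 window held neither motif. Over all 33469 promoter windows, 12.1% held the antioxidant core and 29.7% the xenobiotic core. A match is a description of letters and was not tested as a binding site.

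The NRF2 transcript itself lay lower. Nfe2l2 read 8.26, 8.27, 8.36, 8.50 and 8.35 in vehicle and 7.96, 7.84, 7.86, 7.52 and 8.02 at 6 mg/kg, with no overlap between the groups. The change was −0.51 ± 0.10 (SE, 95% interval −0.72 to −0.30), the lowest p among lower genes read by their brightest probe set (unadjusted p = 1.93e-05, limma adjusted p = 0.117). Of 28 genes listed as NRF2 targets, 17 lay above vehicle and 11 below, 8 were higher and 2 lower at an unadjusted p below 0.05 (background 3.33% and 5.48% of genes), and the median was 0.075. The listed genes thus did not share 1 direction.

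The smallest p among the NRF2 targets belonged to the aflatoxin aldehyde reductase Akr7a3, which reduces reactive dialdehydes. This gene read 7.32, 7.52, 7.74, 7.70 and 7.73 in vehicle and 8.61, 8.41, 8.72, 8.11 and 8.76 at 6 mg/kg, again with no overlap. The change was 0.92 ± 0.23, or 1.89-fold (unadjusted p = 0.000423), and it passed the test only where the 10 arrays were fitted alone (limma adjusted p = 0.0393). Abcc3, an efflux pump of the basolateral membrane for glucuronides and bile acids, read 4.04, 3.18, 3.51, 3.94 and 5.24 in vehicle and 5.82, 5.35, 5.21, 4.21 and 4.99 at 6 mg/kg. Vehicle replicate 5 was the highest of its group and overlapped the dosed arrays. The change of 1.14 ± 0.31 became 1.45 without that array, with a limma adjusted p of 0.0763. Over all settings it ran from 0.93 to 1.45, and the highest limma adjusted p was 0.518, without vehicle replicate 4.

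Other NRF2 targets had smaller or opposite values. The aldehyde oxidase Aox1 lay higher by 0.36 ± 0.11, from 8.82 ± 0.21 (SD) to 9.19 ± 0.12, and the epithelial glutathione peroxidase Gpx2 by 0.45 ± 0.19 with no overlap. The canalicular pump Abcc2, which exports glutathione and glucuronide conjugates into bile, differed by −0.50 ± 0.19, or −0.66 without vehicle replicate 5. Over all settings its change ran from −0.66 to −0.41. The following genes were picked after their values were seen, as textbook targets. The quinone reductase Nqo1 read 5.54 ± 0.08 in vehicle and 5.72 ± 0.10 at 6 mg/kg, a change of 0.18 ± 0.19. Gclc, the catalytic subunit of the first enzyme of glutathione synthesis, differed by −0.094 ± 0.11, and the heme oxygenase Hmox1 by −0.20 ± 0.12.

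**Figure D2:**
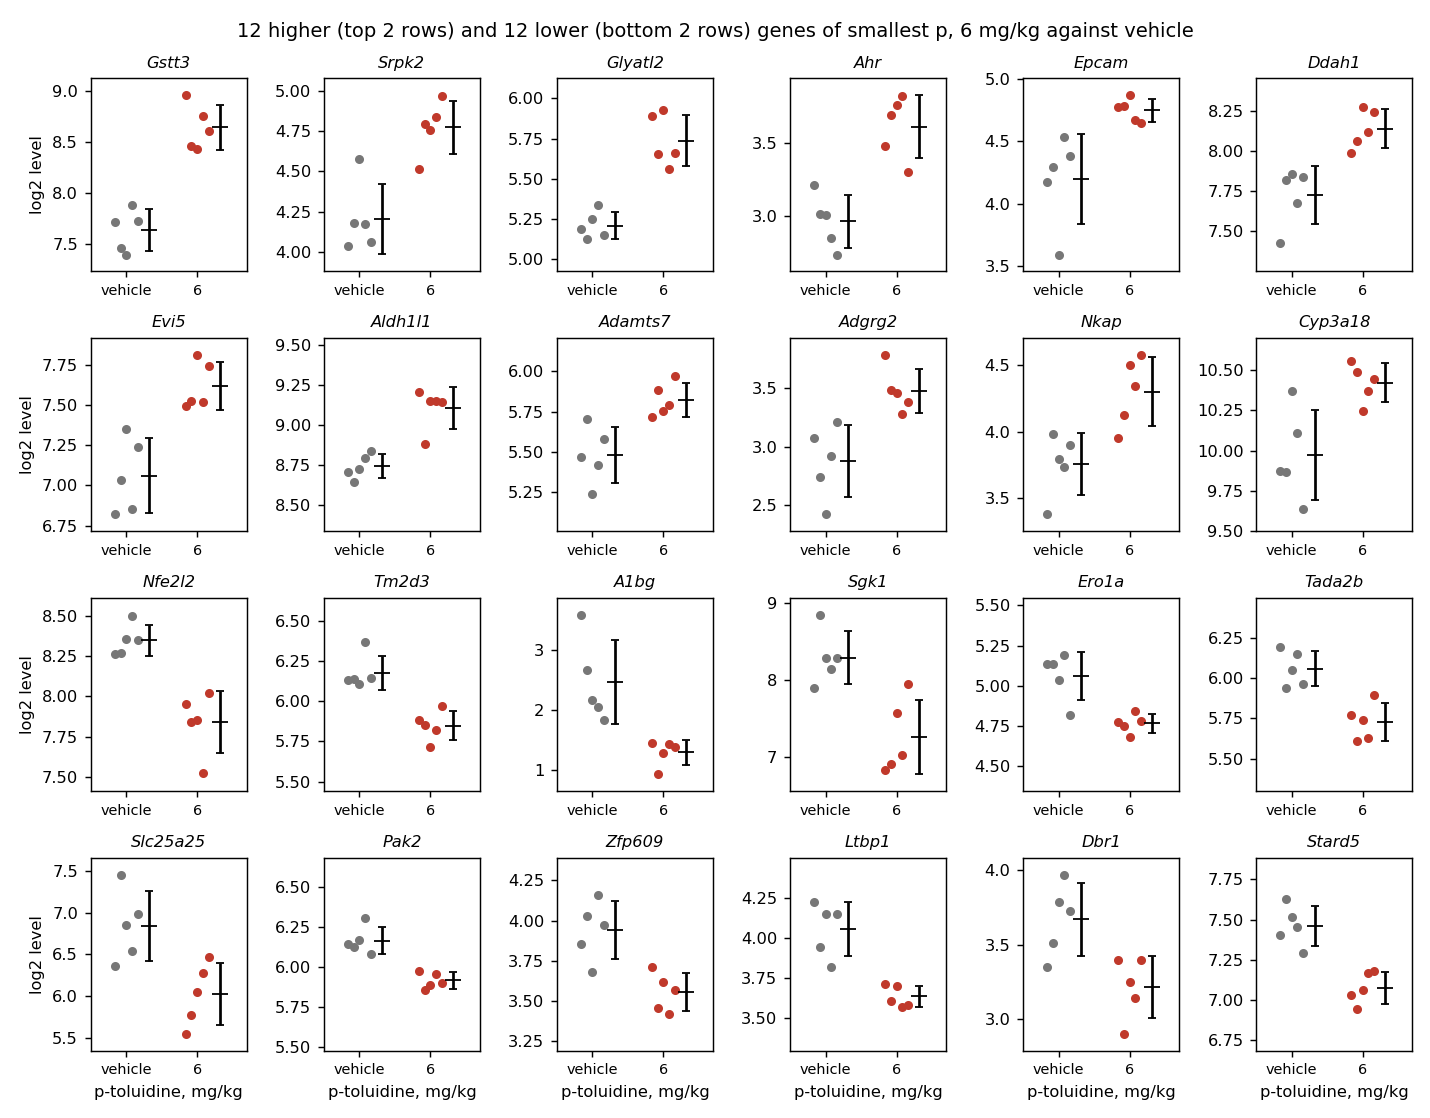
Points are log2 levels on single arrays, grey for vehicle and red for 6 mg/kg of p-toluidine, and the bars give the group mean ± SD of 5 arrays, with a separate vertical scale for each gene that does not start at 0. The top rows hold the 12 higher genes of smallest p and the bottom rows the 12 lower ones; Gstt3, Glyatl2 and Nfe2l2 show no overlap, while in Srpk2 and Sgk1 single arrays reach into the other group.

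Ahr, Nr1i3 and Nr1i2, which encode receptors for foreign compounds, each read above vehicle on average, and none passed the test. Ahr read 3.21, 3.02, 3.01, 2.85 and 2.73 in vehicle and 3.48, 3.70, 3.76, 3.83 and 3.30 at 6 mg/kg, without overlap, a change of 0.65 ± 0.14 (unadjusted p = 5.44e-05, limma adjusted p = 0.171). These levels are close to the array median, and the other probe set of Ahr differed by 0.18. Nr1i3, which encodes CAR, read 5.28, 4.97, 5.37, 5.54 and 5.44 in vehicle and 5.89, 5.77, 5.98, 6.16 and 5.81 at 6 mg/kg. All 5 dosed arrays lay above the vehicle arrays, and the change was 0.60 ± 0.14 (unadjusted p = 0.000208). Nr1i2, which encodes PXR and was picked after its values were seen, differed by 0.21 ± 0.08 (unadjusted p = 0.0172).

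Genes listed around these receptors gave mixed values. Of 9 genes listed around AHR, Ahr was the only member at an unadjusted p below 0.05 (background 3.33% of genes higher). Cyp1a1, the most inducible AHR target and picked after its values were seen, read 2.05, 2.09, 2.24, 2.73 and 4.24 in vehicle and 4.51, 3.34, 2.14, 2.42 and 2.98 at 6 mg/kg, so the groups overlapped. Its change was 0.41 ± 0.44, and ran from 0.053 without 6 mg/kg replicate 1 to 0.80 without vehicle replicate 5. The change of Cyp1a2, chosen in the same way, was 0.06 ± 0.13. Of 15 genes listed as CAR and PXR targets, 10 lay above vehicle, and the median was 0.21. At an unadjusted p below 0.05, 7 were higher and none lower (background 3.33% and 5.48%). No overlap was seen in 3, all higher (background 0.809% of genes). Each of these counts includes Nr1i3 itself, which is a member of the list.

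Within that list, Cyp3a18, a P450 of the PXR-responsive family, read 9.87, 9.87, 10.37, 10.11 and 9.64 in vehicle and 10.56, 10.49, 10.25, 10.37 and 10.45 at 6 mg/kg. Vehicle replicate 3 overlapped the dosed arrays, and without it the change of 0.45 ± 0.11 became 0.55 with a limma adjusted p of 0.0419. Of 18 other settings, this was the only 1 in which Cyp3a18 passed the test. Without vehicle replicate 5, the lowest vehicle array, the change was 0.37 (limma adjusted p = 0.209). The retinal dehydrogenase Aldh1a1 lay higher by 0.45 ± 0.12, from 9.85 ± 0.23 (SD) to 10.31 ± 0.22, with no overlap.

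Enzymes of amine and phase II metabolism lay on both sides of vehicle. Of 23 listed genes, 14 lay above and 9 below vehicle, with 4 higher and 1 lower at an unadjusted p below 0.05 (background 3.33% and 5.48% of genes) and a median of 0.066. The flavin monooxygenase Fmo1, which oxidises nitrogen in foreign compounds, differed by 0.25 ± 0.10, and the related Fmo5 by 0.49 ± 0.20. Nicotinamide N-methyltransferase, Nnmt, differed by −0.28 ± 0.10. Glyatl2, a glycine N-acyltransferase that stands outside this list, read 5.18, 5.12, 5.25, 5.33 and 5.15 in vehicle and 5.89, 5.65, 5.93, 5.56 and 5.66 at 6 mg/kg. Its groups did not overlap, and its change of 0.53 ± 0.11 (unadjusted p = 2.64e-05) passed the test only with array weights (limma adjusted p = 0.0449).

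Lipid genes were mixed. The stearoyl-CoA desaturase Scd, which makes monounsaturated fatty acids, read 6.33, 5.99, 7.28, 7.75 and 5.04 in vehicle and 5.13, 5.53, 4.55, 5.52 and 5.90 at 6 mg/kg. The vehicle arrays spread widely and replicate 5, the lowest of them, lay among the dosed arrays. The change was −1.15 ± 0.33 and became −1.51 without that array (limma adjusted p = 0.0763). Over all settings it ran from −1.51 to −0.84. The highest limma adjusted p was 0.630, without vehicle replicate 4, the highest vehicle array. The desaturase Fads2 lay the other way, at 0.41 ± 0.12, and the pyruvate kinase Pklr differed by −0.31 ± 0.09 without overlap. Over 21 genes of fatty acid and triglyceride synthesis, 3 were higher and 2 lower at an unadjusted p below 0.05 (background 3.33% and 5.48% of genes). Their median was −0.038, and ran from −0.105 without vehicle replicate 5 to 0.031 without vehicle replicate 1.

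Most of the listed cholesterol synthesis genes lay above vehicle. Of 19 listed, 16 lay above (background 6621 of 14217 genes). Of the 16, 4 had an unadjusted p below 0.05 (background 3.33% of genes), and none was without overlap. The median was 0.18, and ran from 0.071 without vehicle replicate 3 to 0.248 without 6 mg/kg replicate 2. Idi1, an isomerase of the isoprenoid steps, read 8.40, 7.47, 7.33, 7.80 and 8.04 in vehicle and 8.46, 8.11, 8.54, 8.22 and 8.05 at 6 mg/kg, a change of 0.47 ± 0.17. The lanosterol demethylase Cyp51 differed by 0.38 ± 0.13 and the sterol reductase Tm7sf2 by 0.30 ± 0.13. For each of these 3 genes all 5 dosed arrays lay above the vehicle mean while some vehicle arrays lay among them. Over 29 PPARA targets, which serve fatty acid oxidation, the median was 0.020, with Acaa2 at 0.15 ± 0.07 and Plin2 at −0.22 ± 0.08.

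Most listed genes of the endoplasmic reticulum stress response lay below vehicle. Of 30 genes listed for the integrated stress and unfolded protein responses, 23 lay below (background 7596 of 14217 genes). At an unadjusted p below 0.05, 7 were lower (background 5.48%) and none higher, and the list's median was −0.086. The chaperone Hspa5 read 10.40, 10.59, 10.57, 10.39 and 10.31 in vehicle and 10.28, 10.09, 10.08, 10.24 and 10.09 at 6 mg/kg, a change of −0.30 ± 0.10 without overlap. Creld2, a resident of the same compartment, differed by −0.45 ± 0.15 and the disulfide isomerase Pdia4 by −0.33 ± 0.11. In both, vehicle replicate 5 was the lowest vehicle array, at 6.50 for Creld2 and 8.95 for Pdia4, and overlapped the dosed arrays. Of 15 heat shock genes 12 lay below vehicle (background 7596 of 14217 genes). Of these, 1 had an unadjusted p below 0.05 (background 5.48% of genes), Dnajb1 at −0.18 ± 0.08. Hsph1, with a change of −0.38 ± 0.20, had no overlap although its p was 0.0686.

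**Figure D3:**
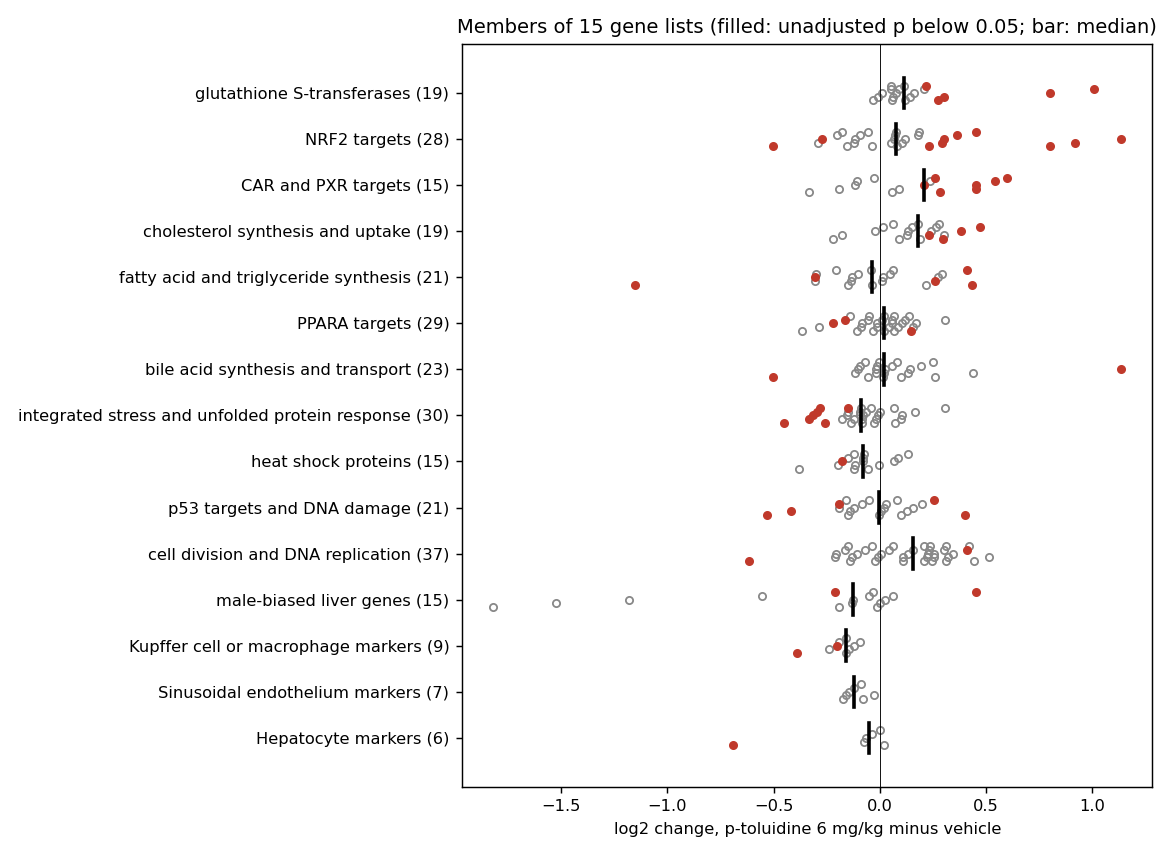
Each circle is the log2 change of 1 gene at 6 mg/kg of p-toluidine minus vehicle, in 15 of the gene lists with the number of genes in brackets; filled circles have an unadjusted p below 0.05 and the black bar is the list's median. The medians run from −0.16 for Kupffer cell markers to 0.21 for CAR and PXR targets, and none of the genes passed the test.

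Single genes of the glucocorticoid and glucose list lay below vehicle, while the list's median was near 0. Sgk1, a kinase induced by glucocorticoids, read 7.89, 8.85, 8.28, 8.15 and 8.28 in vehicle and 6.83, 6.91, 7.56, 7.03 and 7.95 at 6 mg/kg. Only dosed replicate 5 reached into the vehicle range, and the change was −1.03 ± 0.23, or 2.05-fold lower (unadjusted p = 9.68e-05). The tyrosine aminotransferase Tat, a classic glucocorticoid target, differed by −0.69 ± 0.23, and by −0.46 without vehicle replicate 5, which read 8.78. The glycerol phosphate dehydrogenase Gpd1 differed by −0.24 ± 0.08. Slc25a25, a calcium-dependent mitochondrial carrier of ATP outside this list, differed by −0.82 ± 0.20, from 6.84 ± 0.42 (SD) to 6.02 ± 0.37. Of 26 genes listed for gluconeogenesis, glycolysis and the glucocorticoid response, 1 was higher and 5 were lower at an unadjusted p below 0.05 (background 3.33% and 5.48% of genes), with a median of −0.047.

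Cell cycle and damage genes had no common direction. Cyclin D1, Ccnd1, which drives entry into the cycle, read 6.36, 6.20, 6.29, 6.98 and 7.38 in vehicle and 5.94, 5.84, 5.95, 6.20 and 6.21 at 6 mg/kg. The change was −0.61 ± 0.17, and −0.43 without vehicle replicate 5, the highest array. The other probe sets of Ccnd1 differed by −0.41 and −0.33. Later cell cycle genes lay the other way with wide spread: the survivin gene Birc5 differed by 0.41 ± 0.15 and Ccnb1 by 0.51 ± 0.28, or 0.23 without vehicle replicate 5. Over 37 genes of cell division and DNA replication, 25 lay above vehicle (background 6621 of 14217 genes). At an unadjusted p below 0.05, 1 was higher and 1 lower (background 3.33% and 5.48% of genes). The median was 0.16, and ran from 0.018 without vehicle replicate 5 to 0.316 without vehicle replicate 3. Of 21 p53 targets, 2 were higher and 3 lower at that level (background 3.33% and 5.48% of genes), with a median of −0.0045. Phlda3 differed by −0.53 ± 0.17 and Plk2 by −0.42 ± 0.13, while Ddb2, a nucleotide excision repair factor, differed by 0.25 ± 0.09 in its brighter probe set and −0.06 in the other. Cdkn1a, which encodes the cycle inhibitor p21 and was picked after its values were seen, differed by −0.14 ± 0.23, and by −0.05 in another probe set.

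Genes of sex-dependent liver expression spread widely between arrays. Of 15 male-biased genes 1 was higher and 1 lower at an unadjusted p below 0.05 (background 3.33% and 5.48% of genes). Their median was −0.13, and ran from −0.228 without vehicle replicate 5 to −0.014 without 6 mg/kg replicate 1. Of 15 female-biased genes 1 was higher and 3 were lower at that level, with a median of −0.16. A1bg, which is higher in female rat liver, read 3.60, 2.67, 2.17, 2.05 and 1.84 in vehicle and 1.45, 0.93, 1.28, 1.43 and 1.38 at 6 mg/kg. The groups did not overlap, but all 5 dosed levels and 4 of 5 vehicle levels lay below the median of every p-toluidine array, 2.73 at the lowest. The change was −1.18 ± 0.26, or −1.33 without vehicle replicate 5 (unadjusted p = 8.94e-05 with all arrays). Over all settings it ran from −1.33 to −0.89. Obp3, an alpha-2u-globulin relative high in male liver, ran from 2.01 to 8.47 over the vehicle arrays and from 2.08 to 8.24 over the dosed ones, so its change of −1.82 ± 1.05 had an interval from −3.96 to 0.32, and ran from −2.83 without 6 mg/kg replicate 4 to −1.20 without vehicle replicate 3, with −2.82 without vehicle replicate 5. H19, an imprinted RNA of fetal liver picked after its values were seen, had the largest change upward of any gene at 1.54 ± 0.68, with vehicle arrays from 4.78 to 8.89 and dosed arrays from 6.52 to 9.30. Vehicle replicate 5 was the highest of its group, and without it the change of H19 was 2.22 (limma adjusted p = 0.209). Over all settings the change ran from 1.14 to 2.22, and the highest limma adjusted p was 0.814, without vehicle replicate 4.

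Several genes of the smallest p belong to none of these groups. Among the higher ones, Epcam, a surface protein of biliary and progenitor cells, read 4.18, 4.30, 3.60, 4.53 and 4.38 in vehicle and 4.77, 4.78, 4.87, 4.67 and 4.64 at 6 mg/kg, a change of 0.55 ± 0.12 without overlap. Ddah1, which degrades the nitric oxide synthase inhibitor dimethylarginine, differed by 0.41 ± 0.09, and the folate enzyme Aldh1l1 by 0.36 ± 0.08, both without overlap. Adgrg2, an adhesion G protein-coupled receptor, differed by 0.60 ± 0.14, the metalloprotease Adamts7 by 0.34 ± 0.08, and the GTPase-activating protein gene Evi5 by 0.56 ± 0.13, with 0.18 to 0.29 in its other probe sets. None of these 6 genes overlapped between the groups.

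For some of the higher genes the probe sets disagreed. Srpk2, a kinase of splicing factors, differed by 0.57 ± 0.11 (unadjusted p = 1.62e-05), while its other probe sets differed by −0.20 to 0.03. Vehicle replicate 3 was its highest vehicle array at 4.58, and without that array Srpk2 passed the test (limma adjusted p = 0.0182). It passed likewise without 6 mg/kg replicate 1 (0.0347) and with array weights (0.0449). Nkap differed by 0.54 ± 0.13 and by 0.18 in its other probe set, and the acute phase factor gene Stat3 by 0.50 ± 0.15 with −0.0031 in the other.

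Among the lower genes, Tm2d3 differed by −0.33 ± 0.07, the transcriptional adaptor gene Tada2b by −0.33 ± 0.08, and Ltbp1, a binder of latent TGF-beta, by −0.42 ± 0.10, all without overlap. The lariat debranching enzyme gene Dbr1 differed by −0.45 ± 0.11 and the sterol carrier Stard5 by −0.38 ± 0.10, the latter with −0.31 to −0.18 in its other probe sets. Disagreement between probe sets was seen here too. Ero1a, an oxidase of the endoplasmic reticulum, differed by −0.30 ± 0.07 in the brighter probe set and by 0.22 in the other. Zfp609 differed by −0.39 ± 0.09 with 0.0030 to 0.04 in the others, and the kinase Pak2 by −0.25 ± 0.06 with −0.09 to 0.01.

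Markers of the liver's cell types were read from the same arrays. All 9 Kupffer cell or macrophage markers on the array lay below vehicle, where 7596 of 14217 genes did, with a median of −0.16. Of the 9, 2 had an unadjusted p below 0.05 (background 5.48% of genes) and 2 had no overlap (background 1.13% of genes). Adgre1, a surface receptor of macrophages, read 4.88, 5.06, 4.93, 4.78 and 4.90 in vehicle and 4.72, 4.46, 4.76, 4.35 and 4.32 at 6 mg/kg, a change of −0.39 ± 0.14. The lysosomal Cd68 differed by −0.24 ± 0.12 without overlap and the scavenger receptor Cd163 by −0.20 ± 0.09. Clec4f and Cd5l, defining Kupffer cell genes picked after their values were seen, differed by −0.14 ± 0.12 and −0.19 ± 0.13. The mean level over the 9 markers ran from 5.95 to 6.36 on the dosed arrays and from 6.31 to 6.44 on the vehicle arrays.

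Sinusoidal endothelial markers lay below vehicle in 7 of 7 (background 7596 of 14217 genes), by a median of −0.12, with none at an unadjusted p below 0.05. In bulk tissue, fewer cells of a type and less RNA per cell cannot be told apart, and the part of these markers in the other changes was not tested. The 6 hepatocyte markers were bright on every array, with mean levels of 11.5 to 11.7 on the dosed and 11.6 to 12.0 on the vehicle arrays, and their median change was −0.052. Markers of pancreatic acinar cells averaged 2.14 to 2.24 over both groups, below the array medians. Of the 6 cholangiocyte markers 4 lay above vehicle. Epcam and Cftr (0.27 ± 0.08, at levels from 0.70 to 1.37) were the members at an unadjusted p below 0.05, both higher (background 3.33% of genes).

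Against the doses on either side, few differences were found. For 6 minus 1 mg/kg, limma called 0 of 31042 probe sets (0.0%), with an unadjusted p below 0.05 in 1463 (4.71%) and a lowest adjusted p of 0.926. For 6 minus 20 mg/kg, 1 probe set was called (0.00322%), that of Gstp1, while 1637 (5.27%) had an unadjusted p below 0.05. Gstp1 read 5.71 ± 0.50 (SD) at 6 mg/kg, from 4.98 to 6.39, and 7.95 ± 1.11 at 20 mg/kg, from 6.52 to 9.19, so that the groups did not overlap. It lay lower at 6 mg/kg, with a difference of −2.24 ± 0.32 (SE, 95% interval −2.88 to −1.59, limma adjusted p = 0.00205). In a fit of the arrays of these doses alone the difference kept its size but the adjusted p was 0.310 and no probe set was called.

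The changes from vehicle at the other doses share the vehicle arrays with 6 mg/kg and are given side by side. At 1 mg/kg the test called 0 probe sets (0.0%). The number of calls was 244 (0.786%) for 20 mg/kg, 1400 (4.51%) for 60 mg/kg, and 3337 (10.7%) for the top dose. The changes of Gstt3 were 0.29, 1.01, 1.50, 2.34 and 2.43 from 1 to 120 mg/kg. Those of Akr7a3 were 0.46, 0.92, 1.61, 2.97 and 4.22, and those of Abcc3 were 0.67, 1.14, 1.65, 2.19 and 2.30. For these 3 genes the value at 6 mg/kg thus lay between those at the neighbouring doses, and each was called from 20 mg/kg up. Gstp1 had changes of 0.0048 at 1 mg/kg and 0.12 at 6 mg/kg, then 2.36, 5.34 and 6.41, the last 3 of them called.

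Nfe2l2, Ahr and A1bg had their extreme below the top dose, whereas Sgk1 and Nqo1 had it at 120 mg/kg. Nfe2l2 had changes of −0.24, −0.51, −0.57, −0.65 and −0.34 over the same doses and was called from 20 mg/kg up. Ahr had 0.49, 0.65, 0.57, 0.14 and −0.10, with its only call at 20 mg/kg (limma adjusted p = 0.0384). The values of Sgk1 were −0.56, −1.03, −1.59, −1.53 and −1.86, called from 20 mg/kg up. Those of A1bg were −0.81, −1.18, −1.02, −0.88 and −0.53, with a call at 60 mg/kg only (limma adjusted p = 0.0472). Those of Nqo1 were 0.08, 0.18, 0.45, 1.52 and 2.82, with calls at the top 2 doses.

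**Figure D4:**
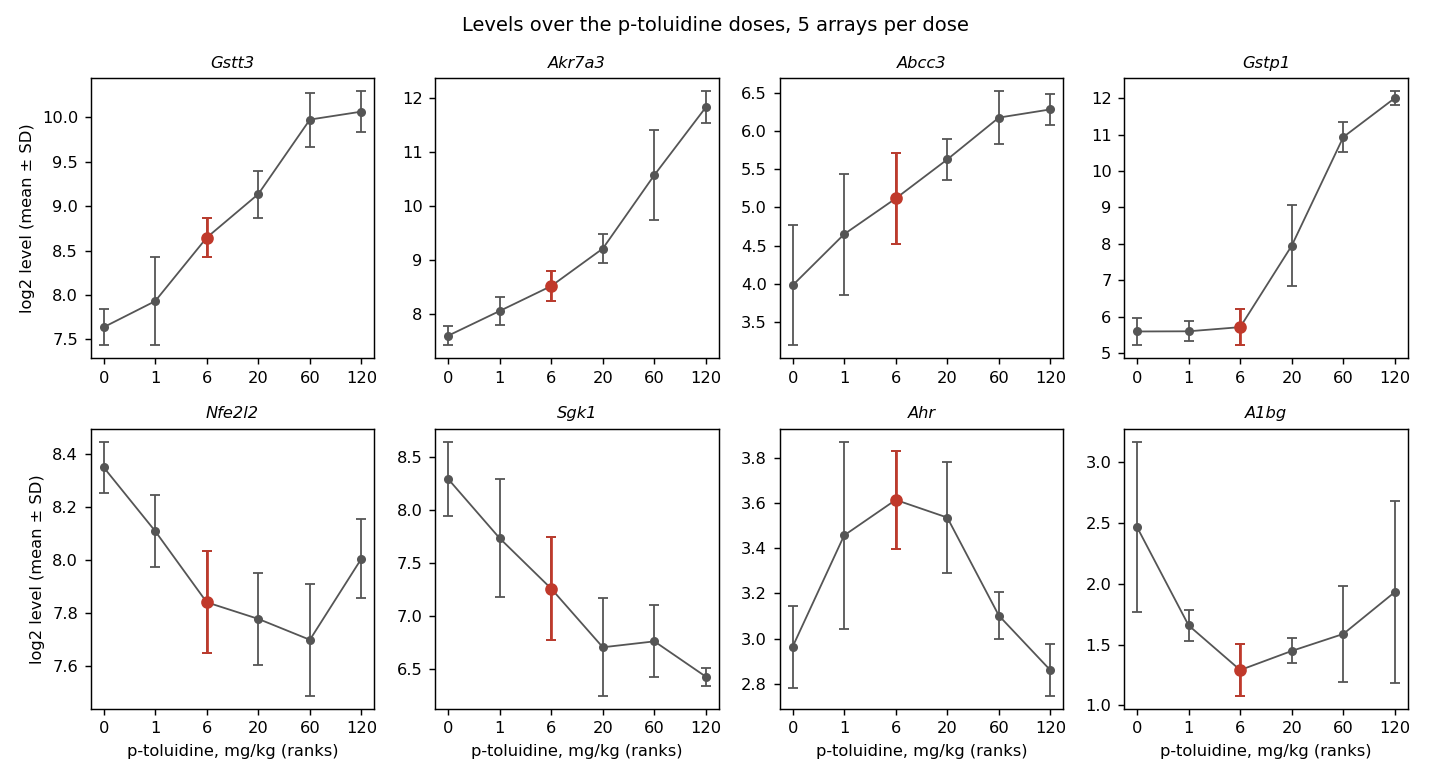
Log2 levels (mean ± SD of 5 arrays) of 8 genes are plotted over the p-toluidine doses in mg/kg, spaced by rank and with 0 for vehicle; the 6 mg/kg group is red and vertical scales differ between genes and do not start at 0. Gstt3 stood at 8.65 at 6 mg/kg, between 7.93 at 1 mg/kg and 9.14 at 20 mg/kg, whereas Gstp1 stood at 5.71, close to its vehicle level of 5.60.

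DMPT was given at the same dose of 6 mg/kg, so the responses to the compounds with and without methyl groups on the nitrogen can be set against each other, each minus its own vehicle. This was the 1 pair of compounds compared. The difference of the responses (p-toluidine minus DMPT) passed the test for 0 of 31042 probe sets (0.0%), while 1876 (6.04%) had an unadjusted p below 0.05 and the lowest adjusted p was 0.247. It called 1 probe set when only the 20 arrays were fitted and 1 without p-toluidine 6 mg/kg replicate 1. The median SE of this difference was 0.133, so that differences of small size could not be seen with 5 arrays per group.

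DMPT called 52 probe sets at this dose (0.168%), 17 higher (0.0548%) and 35 lower (0.113%). The next 5 genes were taken from the higher ones, so their DMPT values had already passed the test. Gstt3 rose by 1.32 ± 0.21 with DMPT (limma adjusted p = 0.00182) against 1.01 ± 0.17 with p-toluidine, a difference of −0.31 with an interval of −0.87 to 0.26. Akr7a3 rose by 1.03 with DMPT against 0.92, with a difference of −0.11 (−0.79 to 0.57). Abcc3 rose by 1.56 with DMPT against 1.14, with a difference of −0.43 (−1.31 to 0.45). Gstm1 rose by 0.55 against 0.30, with a difference of −0.25 (−0.50 to −0.0028), and Adgrg2 by 0.71 against 0.60, with a difference of −0.11 (−0.53 to 0.31). These intervals include differences of considerable size in either direction for Akr7a3 and Abcc3, so equal responses were not shown.

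Of the 17 probe sets that rose with DMPT, 15 lay higher with p-toluidine, where 52.2% of all probe sets lay higher. Among the 15, 7 had an unadjusted p below 0.05 (background 4.17% of probe sets) and 4 had no overlap (background 0.805%). Of the 35 that fell with DMPT, 30 lay lower with p-toluidine, where 47.8% of all probe sets did. The 35 held more than 1 probe set of Thrsp and of Cdkn1a, so the count is of probe sets and not of genes. Among the 30, 10 had an unadjusted p below 0.05 (background 4.06% of probe sets) and 3 had no overlap (background 0.812%). The median changes with p-toluidine were 0.17 and −0.12, and those with DMPT were 0.47 and −0.47. The probe sets were chosen by their DMPT values, so the gap between these medians is no result. Creld2, which fell by 0.45 with DMPT, had a change of −0.45 with p-toluidine, and Phlda3, which fell by 0.75, had −0.53.

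Some genes were lower with DMPT and near their vehicle level with p-toluidine. Thrsp, a lipogenic nuclear protein picked after its values were seen, read 9.19, 8.84, 8.57, 9.14 and 7.77 in p-toluidine vehicle and 8.30, 8.85, 8.66, 8.99 and 8.96 at 6 mg/kg. These groups overlapped, and the change was 0.048 ± 0.19, or −0.18 without vehicle replicate 5. With DMPT it fell by 1.15 (limma adjusted p = 0.00182), and the difference of 1.20 (0.65 to 1.74) had the lowest adjusted p, 0.247. Other Thrsp probe sets called with DMPT had changes of −0.11 and −0.078 with p-toluidine, against −1.11 and −1.15 with DMPT. Cdkn1a fell by 0.76 with DMPT against a change of −0.14 with p-toluidine, a difference of 0.62 (0.054 to 1.19, limma adjusted p = 0.803). Another Cdkn1a probe set changed by −0.98 with DMPT and −0.05 with p-toluidine, a difference of 0.93 (0.39 to 1.46, limma adjusted p = 0.536). Gstp1 went the other way, at 1.52 ± 0.34 with DMPT (limma adjusted p = 0.0597) against 0.12, a difference of −1.40 (−2.38 to −0.41, limma adjusted p = 0.649). None of these differences passed the test.

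**Figure D5:**
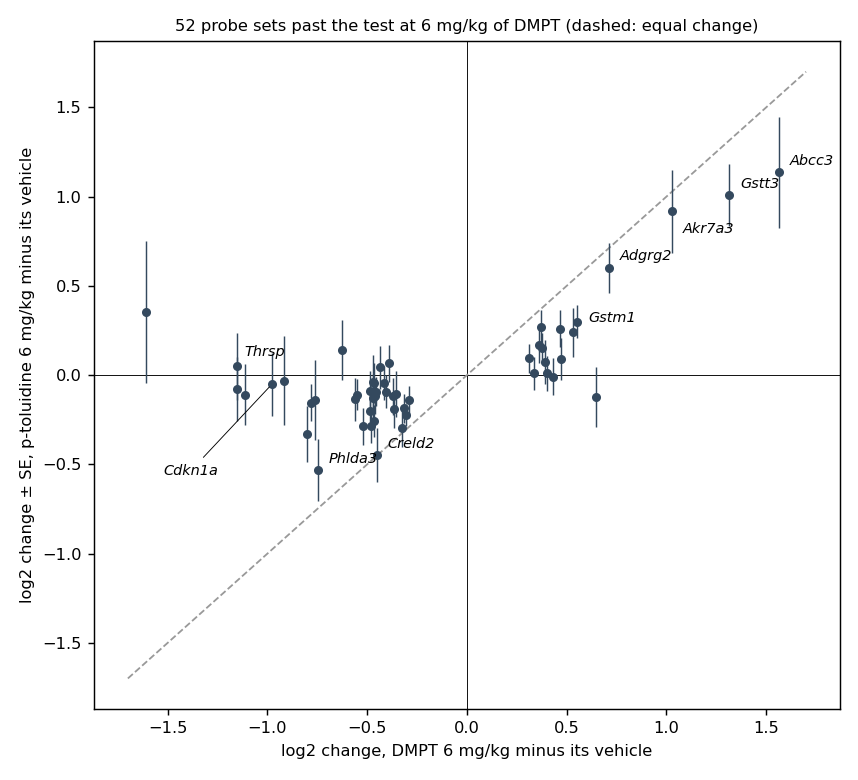
Each point is 1 of the 52 probe sets called at 6 mg/kg of DMPT, with its log2 change against DMPT vehicle on the horizontal axis and its log2 change ± SE at 6 mg/kg of p-toluidine on the vertical axis; the dashed line marks equal change. Abcc3, Gstt3, Akr7a3 and Adgrg2 lie near the line at upper right, and the Thrsp and Cdkn1a probe sets lie near 0 for p-toluidine.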

How the data were processed

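The deposited table held log2 values per probe set made by the authors with RMA, per the submitters' processing notes; version and settings were not given in the sources used here, and the log2 scale was inferred from RMA and from the range of the values, 0.0507 to 13.9. Array medians ran from 2.73 to 2.81 for p-toluidine and from 3.53 to 3.61 for DMPT, so the chemicals appear to have been normalized apart and levels were compared only within a chemical. Of 31099 probe sets, 57 were controls, and the other 31042 entered the tests, dim ones included. Of these, 20826 carried 1 gene symbol, 436 several and 9780 none; names came from the platform annotation, updated by gene ID to RefSeq. The values carry no depth, and precision is limited by the number of arrays.

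limma 3.58.1 (R 4.3.3) was fitted to the 30 p-toluidine arrays with 6 group means, and to all 60 arrays with 12 means for the difference of responses, with eBayes and Benjamini-Hochberg adjustment over all probe sets; a call is an adjusted p of at most 0.05. The fit was tested on simulated data. Array checks used two-sided exact permutation tests. Errors of changes are SEs of the fit and errors of levels are SDs. Each gene was read by its brightest 1-symbol probe set over the 30 arrays.

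Named genes are the 12 of smallest unadjusted p in each direction where none was called, up to 3 of smallest p in each of 40 lists, and the called genes of the other contrasts; others are said to be picked after their values were seen. The members and lists were chosen with earlier results of these data known, and several lists share genes. Lists are described by counts and medians, with no set test. Of 839 listed entries 714 were on the array. The ORIOGEN software named in the series' design was not used here. Promoters came from RefSeq (GRCr8); gene coordinates of the array are not given.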

Additional observations from a re-analysis of the deposited data

Results flagged for a closer look

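Of 182 groups of 5 arrays, for 87 named genes and 4 array measures, 10 had a highest or lowest array far from the rest by Dixon's test, which flags about 1 group in 20 by chance. Single high arrays were vehicle replicate 3 for Srpk2 (4.58, others 4.04 to 4.18), vehicle replicate 4 for Tm2d3 (6.37), and, at 6 mg/kg, replicate 1 for Fmo5 (8.74), replicate 2 for Birc5 (4.21, others 3.42 to 3.57) and replicate 5 for Axin2 (5.12), a Wnt target whose change was 0.30 ± 0.14. Single low arrays were 6 mg/kg replicate 2 for Aldh1l1 (8.88), 6 mg/kg replicate 4 for the lipid droplet enzyme Hsd17b13 (8.15), vehicle replicate 1 for Phlda3 (5.03), vehicle replicate 5 for the iron regulator Hfe (5.57) and vehicle replicate 3 for the lymphocyte gene Nkg7 (2.00). No array accounted for more than 2 of these 10 groups.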

How the results depend on the processing

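The count of calls against vehicle, 0 with all 30 arrays, was 4 with array weights, 2 with only the 10 arrays, 1 after a further quantile normalization, 1 with the variance trend and 0 to 5 when 1 array was left out. With the replicate number as a block it was 1. Same-numbered arrays did not pair (correlations of deviations from −0.116 to 0.117, and 1 of 5 best with its own number). The difference of responses gave 1 call with only the arrays compared and 0 to 1 without 1 array; 6 minus 20 mg/kg gave 0 and 1 to 2. List medians were recomputed over the mean of all probe sets of each gene, as planned, and by other settings added after seeing the data. The glutathione S-transferase median was 0.088 with the beta-actin gap as covariate, 0.086 median centred, 0.137 quantile normalized and 0.066 to 0.151 without 1 array. The p53 median was −0.029 over the mean of all probe sets, −0.033 median centred and −0.070 to −0.0025 without 1 array. The acute phase median was −0.030 and the proteasome median −0.054 when median centred; the latter was −0.0081 quantile normalized and −0.047 to 0.00016 without 1 array. Leaving out 1 array gave medians of 0.026 to 0.086 (amine metabolism), −0.013 to 0.061 (bile acids) and −0.295 to −0.133 (female-biased genes). It gave array median gaps of 0.022 to 0.034 and interquartile range gaps of −0.062 to −0.023. Each of these 2 checks kept its outcome in 9 of 10 such tests, all but the one without vehicle replicate 5. The other list medians moved by less than 1 SD in every setting. Over all 40 lists, those just described included, 655 of 680 values moved by less than 1 SD. Signs changed in 8 of 1607 gene values, for Gstp1, Thrsp and Cdkn1a. The cause of these shifts was not tested.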
